A study of Drosophila melanogaster with 18 samples.

Results

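The 30 genes described here act in the synthesis, assembly, deacetylation, binding and breakdown of chitin in Drosophila melanogaster. They were taken from a list of symbols by pathway and gene family, chosen with earlier results of these data known. The symbols were mapped to FlyBase identifiers, and all 30 had values, out of 13731 genes with values in the tables. By role they comprise 2 genes of precursor and polymer synthesis (mmy, kkv), 4 of chitin deposition and assembly (knk, rtv, exp, reb), 5 deacetylases (serp, verm, Cda4, Cda5, Cda9), 4 obstructor-type chitin-binding proteins (Gasp, obst-A, obst-B, obst-E), 9 chitinases (Cht2, Cht4 to Cht11) and 6 imaginal disc growth factors (Idgf1 to Idgf6), which are chitinase-like proteins. Of these, 26 had enough counts to be tested, and Cda9, Cht4, Cht9 and Idgf5 had not.

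Transcripts of dissected pupal wings were measured by poly(A) RNA-seq, with at least 40 wings pooled per library and 3 libraries for each of 6 groups. By the labels, the E93RNAi+brRNAi wings carried rn-Gal4 with UAS-brRNAi and UAS-E93RNAi, and the E93RNAi wings carried rn-Gal4 with UAS-E93RNAi. The control wings are labelled rn-Gal4, with no UAS transgene named. Each genotype was sampled at 44 h and 24 h after puparium formation. The comparisons describe how chitin gene levels differ between E93RNAi and control wings, and between E93RNAi+brRNAi wings and each of these. Eip93F encodes E93, an ecdysone-induced transcription factor needed for adult differentiation, while zinc finger proteins that specify the pupal stage come from broad (br). The rn-Gal4 driver follows rotund in part of the wing, so a dissected wing also holds cells without RNAi. No library with br RNAi alone was analysed here, so the br comparisons are all made in wings that also carry E93 RNAi.

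Chitin is a polymer of N-acetylglucosamine that insect epithelia secrete at the apical surface, where it is bound by proteins, partly deacetylated and built into the cuticle. The synthase kkv uses UDP-N-acetylglucosamine, the product of mmy, and exp and reb act with kkv in depositing the polymer. Chitinases degrade the old cuticle at each molt and also trim the new layer. The pupal wing first lays down a pupal cuticle and later, under it, the cuticle of the adult wing.

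Library totals were 17627937 to 22940404 counts, so a single count was worth 0.0436 to 0.0567 CPM (counts per 1000000). The labels do not state whether a group's 3 libraries are of separate crosses, and p-values therefore measure only their spread, possibly a technical one. Libraries of a group differed by more than sampling noise, with a chi-square per degree of freedom of 2.89 to 11.1 for pairs outside 2 libraries that stood apart. Pairs with E93RNAi+brRNAi 44 h replicate 3 or with E93RNAi 24 h replicate 3 gave 19.0 to 27.6. Among the 26 tested chitin genes, these 2 libraries were the highest of their group for 16 and 14 genes. Libraries that did not stand apart reached the same numbers, 16 in E93RNAi 44 h replicate 1 and 14 in control 24 h replicate 2. Counts without the 2 libraries that stood apart are given beside the main ones.

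Eip93F was at 867 CPM in E93RNAi+brRNAi, 1156 CPM in E93RNAi and 1285 CPM in control at 44 h, with no call between E93RNAi and control (log2 fold change -0.15, adjusted p = 0.0522). At 24 h Eip93F was at 2369 CPM in E93RNAi+brRNAi, 2066 CPM in E93RNAi and 2077 CPM in control, so that the transcript of the RNAi target was not lower in the libraries labelled E93RNAi (-0.01, adjusted p = 0.935). The feature taken as br was at 7.63 CPM in E93RNAi+brRNAi, 50.2 CPM in E93RNAi and 1.70 CPM in control at 44 h, and at 18 CPM in E93RNAi+brRNAi, 95.1 CPM in E93RNAi and 14.8 CPM in control at 24 h. Dcr-2, a component of the RNAi machinery that the labels do not mention, was at 52.4 CPM in E93RNAi+brRNAi, 2202 CPM in E93RNAi and 63.0 CPM in control at 44 h, and at 141 CPM in E93RNAi+brRNAi, 5549 CPM in E93RNAi and 237 CPM in control at 24 h. Dcr-2 was thus far higher in E93RNAi than in both other genotypes at both times. In each comparison with E93RNAi, a difference by RNAi line cannot be told apart from one by Dcr-2. The part of Dcr-2 in the chitin gene differences was not tested. Below, E93RNAi and E93RNAi+brRNAi stand for the libraries so labelled. Wing epithelium markers (nub, vg, rn, sd and bs) had counts in every group, with summed levels of 965 to 1052 CPM in E93RNAi+brRNAi, 1119 to 1130 CPM in E93RNAi and 1215 to 1274 CPM in control at 44 h. At 24 h the sums were 1526 to 1607 CPM in E93RNAi+brRNAi, 1509 to 1742 CPM in E93RNAi and 1509 to 1588 CPM in control. Fewer cells of a type and less RNA per cell cannot be told apart in such pooled tissue.

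The most widespread difference among the chitin genes was between E93RNAi+brRNAi and E93RNAi wings at 44 h, where 21 of 26 tested genes rose and 2 fell (reb and Cht10). A gene was called when its adjusted p from edgeR's quasi-likelihood test was under 0.05, and 48.8% of all 9672 genes tested passed in this comparison, 24.9% as higher and 23.9% as lower. The median log2 fold change of the 26 genes was 0.82, beside -0.01 over all genes tested, with E93RNAi+brRNAi over E93RNAi in every difference between the RNAi genotypes. Rises of at least 1 on the log2 scale were called for 11 chitin genes (exp, Gasp, Idgf2, Cht6, Cht7, Idgf3, Cda5, knk, obst-B, verm and obst-E), whereas 10.8% of all genes passed that size in either direction. Both the 21 and the 11 include obst-E, which passed the filter on low counts only through its RNAi libraries at 44 h. Leaving out E93RNAi+brRNAi replicate 3 gave 20 rises and 1 fall.

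Markers of other cell types moved in the same comparisons. Muscle markers (Mhc, Mlc1, Mlc2, Act57B, Act88F, bt, sls and up, none at 0 in any group) summed to 706 to 856 CPM in E93RNAi+brRNAi, 397 to 510 CPM in E93RNAi and 792 to 926 CPM in control at 44 h. In E93RNAi+brRNAi against E93RNAi all 8 were called higher (median log2 fold change 1.64). Against control, 4 were higher and none lower in E93RNAi+brRNAi (median 0.19), and all 8 were lower in E93RNAi (median -1.22). At 24 h they summed to 155 to 181 CPM in E93RNAi+brRNAi, 281 to 307 CPM in E93RNAi and 193 to 215 CPM in control. Neuron and sensory organ markers (elav, nSyb, brp, sens, ase and pros, none at 0 in any group) summed to 104 to 130.3 CPM in E93RNAi+brRNAi, 155 to 176 CPM in E93RNAi and 126 to 130.4 CPM in control at 44 h. Of the 6, 5 were lower in E93RNAi+brRNAi than in E93RNAi. At 24 h these sums were 105 to 116 CPM in E93RNAi+brRNAi, 165 to 192 CPM in E93RNAi and 134 to 155 CPM in control. The part of these cells in the chitin gene differences was not tested.

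Against control at 44 h, 15 chitin genes rose and 3 fell (Cht5, reb and obst-A) in E93RNAi+brRNAi wings. The share called among all genes was 45.6%, with 23% higher and 22.6% lower, and the medians were 0.52 for the chitin genes and -0.01 for all genes. Rises of at least 1 on the log2 scale were called for 10 chitin genes, beside 10.5% of all genes past that size in either direction. Both the 15 and the 10 include obst-E, which passed the filter on low counts only through its RNAi libraries at 44 h. Without E93RNAi+brRNAi replicate 3 the counts were 15 and 2. In E93RNAi wings at 44 h the chitin genes were divided, with 7 higher and 8 lower than control (39.6% of all genes called, with 20.6% higher and 18.9% lower, medians 0.01 for both). Calls of at least 1 on the log2 scale were rises of exp, serp and Cht7 and falls of Cht5 and Cht8, beside 11.9% of all genes. These 3 comparisons share libraries, so they are not independent.

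At 24 h fewer chitin genes were called with a difference of at least 1 on the log2 scale. In E93RNAi+brRNAi wings, 2 genes (Cda4 and Cht10) rose and 8 fell against control, beside 30.5% of all genes called (14.7% higher and 15.8% lower), and the median was -0.10 (-0.004 over all genes). In E93RNAi wings, 5 rose and 10 fell against control, beside 43.9% of all genes called (21.7% higher and 22.3% lower), and the median was -0.13 (0.001 over all genes). With no filter on low counts the E93RNAi counts were 7 and 7, taken over all 30 genes and so with the 4 otherwise untested ones. Without E93RNAi replicate 3 the counts were 4 and 9 of the 26. E93RNAi+brRNAi against E93RNAi gave 7 rises and 8 falls (41.2% of all genes, with 20.2% higher and 21.1% lower), or 6 and 5 without E93RNAi replicate 3. The medians of that comparison were 0.06 for the chitin genes and -0.015 for all genes. Only Cht5 and Gasp in E93RNAi, Cht5 in E93RNAi+brRNAi, and exp between the RNAi genotypes differed by at least 1 on the log2 scale with a call at 24 h, all downward. The share of all genes past that size was 8.63% in E93RNAi against control, 6.96% in E93RNAi+brRNAi against control and 5.96% in E93RNAi+brRNAi against E93RNAi.

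**Figure D1:**
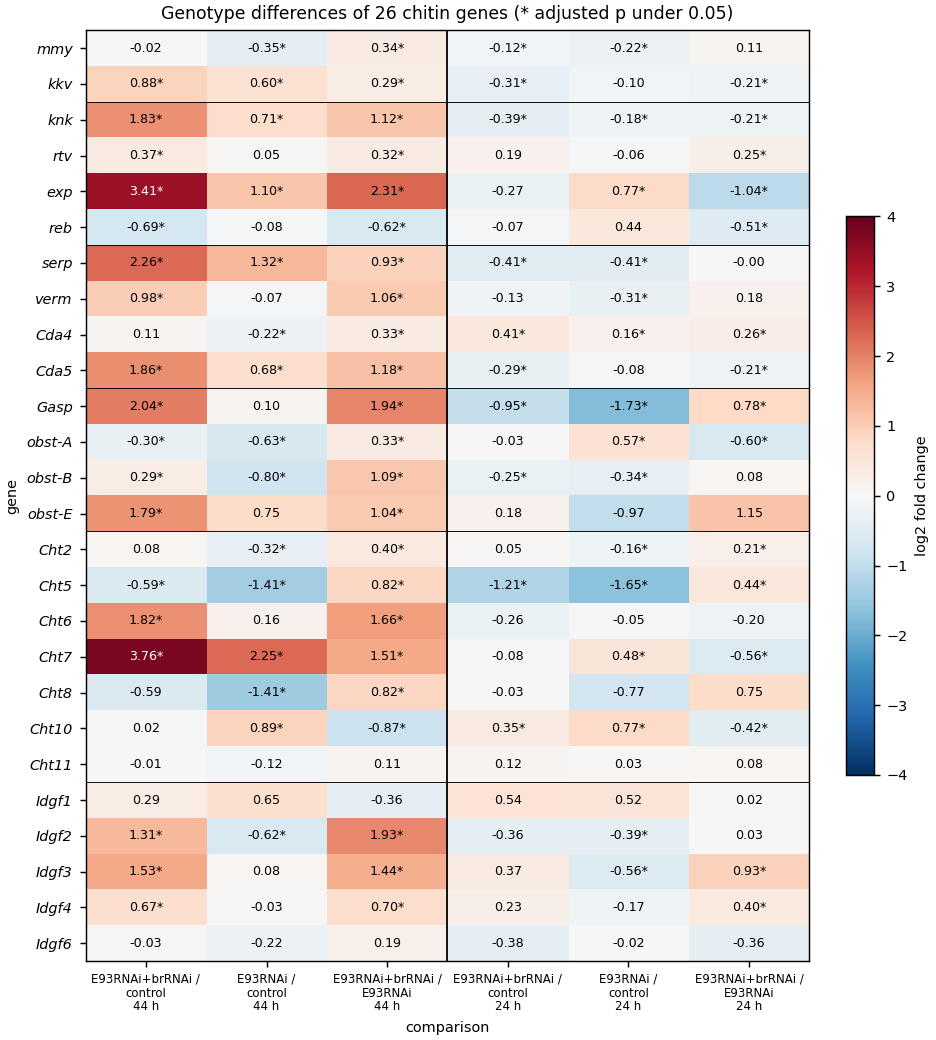
Log2 fold changes of the 26 tested chitin genes (rows, ordered by role) in the 6 genotype comparisons (columns, 44 h left and 24 h right), printed in each cell and coloured on a scale from -4 to 4. An asterisk marks an adjusted p under 0.05, and the columns of E93RNAi+brRNAi at 44 h hold the large rises, up to 3.76 for Cht7.

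The share of all counts that fell on the 30 chitin genes was 0.778% to 0.801% in the E93RNAi+brRNAi libraries, 0.653% to 0.679% in the E93RNAi libraries and 0.498% to 0.527% in the control libraries at 44 h. These ranges did not overlap. At 24 h the shares were 0.444% to 0.459% in E93RNAi+brRNAi, 0.530% to 0.575% in E93RNAi and 0.478% to 0.511% in control. The E93RNAi+brRNAi wings thus had the highest share at 44 h and the lowest at 24 h. Such a share weights genes by their counts and does not tell how many rose. Cht10 alone was at 1712 CPM in E93RNAi+brRNAi, 3119 CPM in E93RNAi and 1689 CPM in control at 44 h.

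Among the synthesis genes, kkv, the chitin synthase of epidermis and trachea (FBgn0001311, chromosome 3R, 5378093 to 5392866, minus strand), was higher in both RNAi genotypes at 44 h. It was at 858, 909 and 831 CPM in E93RNAi+brRNAi, 698, 677 and 752 CPM in E93RNAi and 471, 498 and 439.8 CPM in control. The 3 genotypes did not overlap. Log2 fold changes of kkv were 0.88 ± 0.06, adjusted p = 2.04e-10 for E93RNAi+brRNAi against control, 0.60 ± 0.06, adjusted p = 9.31e-08 for E93RNAi against control, and 0.29 ± 0.06, adjusted p = 6.03e-04 between the RNAi genotypes (± SE of the edgeR fit, as throughout). The call between the RNAi genotypes was lost with limma on log2(cRPKM + 1), the deposited per-length values without composition scaling, at 0.10 (adjusted p = 0.11). At 24 h kkv fell slightly in E93RNAi+brRNAi (log2 fold change -0.31 against control), was not called in E93RNAi (-0.10, but -0.17 with a call without E93RNAi replicate 3). The call between the RNAi genotypes (-0.21) was lost without E93RNAi replicate 3 (-0.14). The pyrophosphorylase gene mmy, which makes the activated sugar (FBgn0259749, chromosome 2L, 6468538 to 6473904, minus strand), moved little between genotypes. It was lower in E93RNAi than in control at both times (log2 fold change -0.35 at 44 h and -0.22 at 24 h) and, at 44 h, at 159 ± 3.28 CPM in E93RNAi+brRNAi against 161 ± 2.31 CPM in control (log2 fold change -0.02, 95% interval -0.10 to 0.07). The small fall of mmy in E93RNAi+brRNAi at 24 h (-0.12) was lost without control replicate 1 (-0.11), without control replicate 2 (-0.12), without control replicate 3 (-0.12), without E93RNAi+brRNAi replicate 1 (-0.07) and without E93RNAi+brRNAi replicate 2 (-0.13), and also with upper-quartile scaling, no filter on low counts, the replicate block and a fit of only the groups compared (-0.12 to -0.11).

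The assembly gene knk encodes a membrane-anchored protein that organises newly made chitin and, in Tribolium, guards it from chitinases (FBgn0001321, chromosome 3R, 10122365 to 10125664, minus strand). At 44 h knk stood at 156, 147 and 174 CPM in the E93RNAi+brRNAi libraries, 70.6, 72.7 and 75.6 CPM in the E93RNAi libraries and 47.6, 42.9 and 43.8 CPM in the control libraries. Each genotype was separate from the others, with E93RNAi+brRNAi highest and control lowest. Log2 fold changes were 1.83 ± 0.06, adjusted p = 1.75e-15 for E93RNAi+brRNAi against control, 0.71 ± 0.06, adjusted p = 9.47e-09 for E93RNAi against control, and 1.12 ± 0.06, adjusted p = 4.15e-12 between the RNAi genotypes. At 24 h the order was turned round, at 132, 124 and 122 CPM in E93RNAi+brRNAi, 139, 145 and 152 CPM in E93RNAi and 162, 168 and 163 CPM in control. The 24 h fall was called in E93RNAi+brRNAi (log2 fold change -0.39) and between the RNAi genotypes (-0.21). The call in E93RNAi (-0.18) was lost without control replicate 2 (-0.16) and without E93RNAi replicate 1 (-0.14), and with no filter on low counts (-0.14). Exons of knk share 1712 bases with an antisense transcript on the other strand (asRNA:CR46038), and the sources used here do not give whether reads of the 2 strands were kept apart. The transport partner of Knk, rtv, moved less, with log2 fold changes at 44 h of 0.37 ± 0.08, adjusted p = 4.53e-04 in E93RNAi+brRNAi against control, 0.05, adjusted p = 0.653 in E93RNAi against control, and 0.32, adjusted p = 0.0015 between the RNAi genotypes, the last of which lost its call with limma on log2(cRPKM + 1) (0.13, adjusted p = 0.158). On the other strand Lint-1, at 694 to 1362 counts per library, shares 109 exon bases with rtv (850 to 1636 counts).

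The pair exp and reb encodes related proteins that can stand in for each other in chitin deposition by kkv, and their genes lie next to each other on chromosome 2R with 26777 bases and no other protein-coding gene between them. On the other strand PI31 shares 93 exon bases with exp. PI31 had 1423 to 2817 counts per library, beside 222 to 2644 for exp. The part of PI31 reads in the exp counts was not tested. At 44 h exp (FBgn0033668, chromosome 2R, 11939557 to 11967435, plus strand) was at 133, 136 and 147 CPM in E93RNAi+brRNAi, 29.6, 25.2 and 29.6 CPM in E93RNAi and 12.2, 13.2 and 13.8 CPM in control. The 3 genotypes were fully separated. The log2 fold changes were 3.41 ± 0.10, adjusted p = 1.47e-16 for E93RNAi+brRNAi against control, 1.10 ± 0.11, adjusted p = 3.16e-08 for E93RNAi against control, and 2.31 ± 0.09, adjusted p = 4.69e-14 between the RNAi genotypes. At 24 h exp was at 18.4, 15.9 and 13.6 CPM in E93RNAi+brRNAi, 32.2, 29.3 and 37.2 CPM in E93RNAi and 18.8, 20.0 and 18.9 CPM in control. The E93RNAi libraries were then the highest, with log2 fold changes of 0.77 ± 0.10, adjusted p = 2.61e-06 for E93RNAi against control and -1.04 ± 0.10, adjusted p = 6.02e-08 between the RNAi genotypes. The difference between E93RNAi+brRNAi and control was not called at 24 h (-0.27, adjusted p = 0.0586), though DESeq2 and a fit of only the groups compared called it. Its neighbour reb was low throughout, at 2.06 to 3.82 CPM in E93RNAi+brRNAi, 4.07 to 5.04 CPM in E93RNAi and 4.21 to 5.33 CPM in control at 44 h. There reb fell by 0.69 on the log2 scale in E93RNAi+brRNAi against control, a call lost without control replicate 2 (-0.58) and without E93RNAi+brRNAi replicate 3 (-0.48). Against E93RNAi the log2 fold change of reb was -0.62 at 44 h, lost without E93RNAi replicate 1 (-0.53), without E93RNAi replicate 3 (-0.62), without E93RNAi+brRNAi replicate 2 (-0.61) and without E93RNAi+brRNAi replicate 3 (-0.40), and -0.51 at 24 h, lost without E93RNAi replicate 1 (-0.51), without E93RNAi replicate 3 (-0.44) and without E93RNAi+brRNAi replicate 2 (-0.32).

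**Figure D2:**
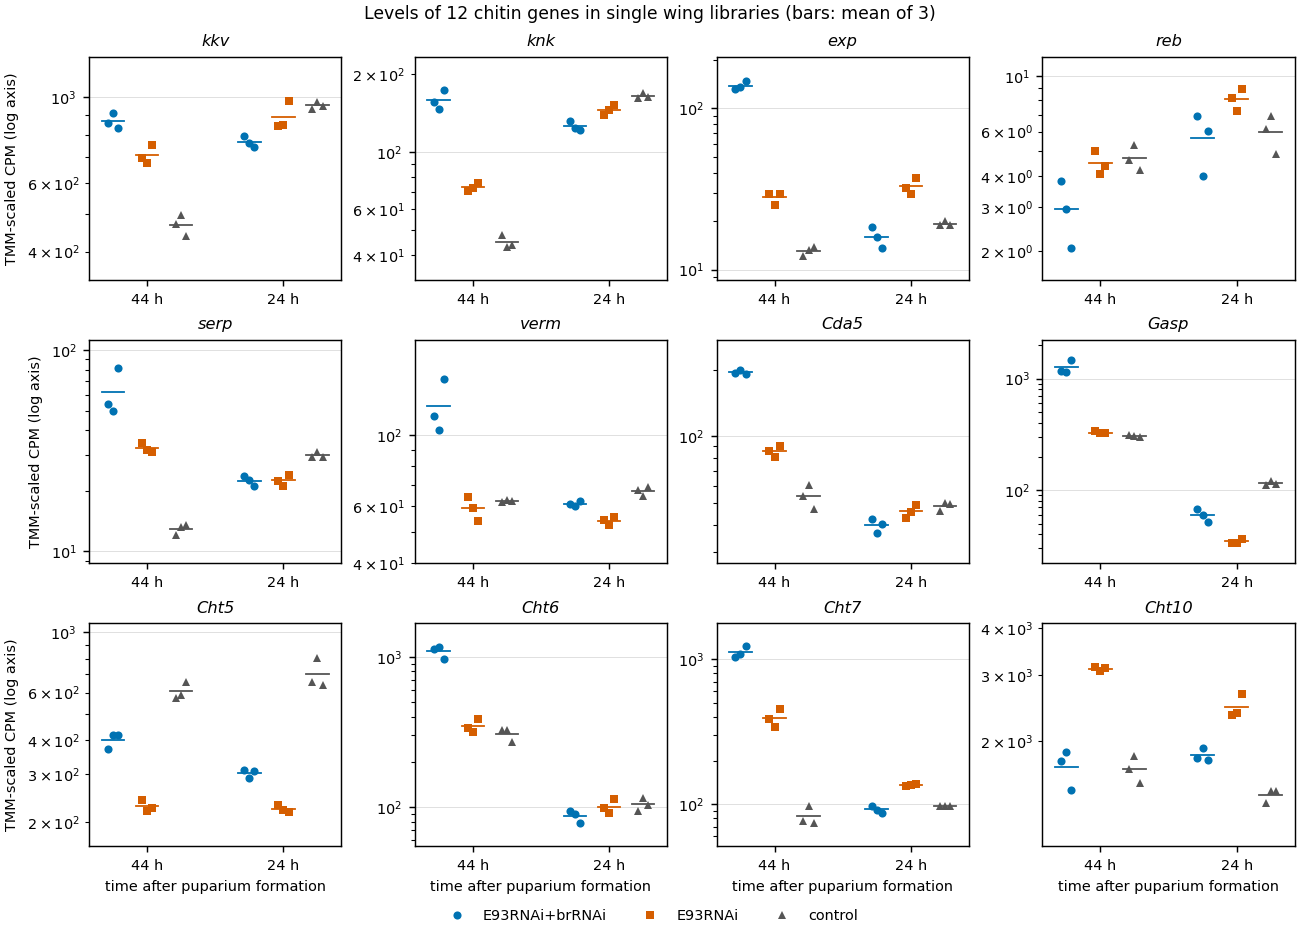
TMM-scaled CPM (log axis, a separate scale per panel) of 12 chitin genes in single wing libraries at 44 h and 24 h after puparium formation. Points are libraries and bars are means of 3, with E93RNAi+brRNAi, E93RNAi and control from left to right, and at 44 h the E93RNAi+brRNAi libraries are the highest for kkv, knk, exp, serp, verm, Cda5, Gasp, Cht6 and Cht7 and the lowest for reb.

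The deacetylases serp and verm remove acetyl groups from secreted chitin, limit the length of tracheal tubes, and lie side by side on chromosome 3L, 5716 bases apart. At 44 h serp (FBgn0260653, chromosome 3L, 19700977 to 19708015, minus strand) was at 53.8, 50.1 and 81.4 CPM in E93RNAi+brRNAi, 34.4, 31.9 and 31.1 CPM in E93RNAi and 12, 13.3 and 13.6 CPM in control. Both RNAi genotypes were clear of control, although E93RNAi+brRNAi replicate 3 was well above the other 2. The fits gave log2 fold changes of 2.26 ± 0.13, adjusted p = 1.48e-11 for E93RNAi+brRNAi against control, 1.32 ± 0.14, adjusted p = 1.15e-07 for E93RNAi against control, and 0.93 ± 0.12, adjusted p = 2.13e-06 between the RNAi genotypes. At 24 h serp was at 23.7, 22.6 and 21.1 CPM in E93RNAi+brRNAi, 22.3, 21.2 and 24.0 CPM in E93RNAi and 29.5, 31.1 and 29.3 CPM in control. Both RNAi genotypes were below control at that time, with log2 fold changes of -0.41 in E93RNAi+brRNAi and -0.41 in E93RNAi. The serp call in E93RNAi+brRNAi was lost without control replicate 2 (-0.39) and without E93RNAi+brRNAi replicate 3 (-0.37).

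Its neighbour verm (FBgn0261341, chromosome 3L, 19690033 to 19695260, minus strand) was higher at 44 h in E93RNAi+brRNAi than in both other genotypes. The libraries were at 115, 104 and 150.3 CPM in E93RNAi+brRNAi, 64.3, 59.5 and 53.9 CPM in E93RNAi and 62.2, 62.7 and 62.3 CPM in control. The log2 fold changes were 0.98 ± 0.09, adjusted p = 1.59e-08 for E93RNAi+brRNAi against control and 1.06 ± 0.09, adjusted p = 6.14e-09 between the RNAi genotypes, whereas E93RNAi against control gave -0.07, adjusted p = 0.564, with a 95% interval of -0.27 to 0.12. At 24 h verm was at 61.1, 60.3 and 62.4 CPM in E93RNAi+brRNAi, 54.5, 52.6 and 55.6 CPM in E93RNAi and 67.6, 64.7 and 68.9 CPM in control, and the fall in E93RNAi (log2 fold change -0.31 ± 0.09, adjusted p = 0.0106) was the call at this time. A fit of only the groups compared also called E93RNAi+brRNAi against control (-0.13) and between the RNAi genotypes (0.20) at 24 h.

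Cda5, a predicted deacetylase (FBgn0051973, chromosome 2L, 25402 to 65404, minus strand), rose in both RNAi genotypes at 44 h. It was at 193, 199 and 191 CPM in E93RNAi+brRNAi, 86.3, 80.9 and 90.9 CPM in E93RNAi and 53.7, 60.2 and 47.1 CPM in control, with no overlap. The log2 fold changes were 1.86 ± 0.07, adjusted p = 2.57e-14 for E93RNAi+brRNAi against control, 0.68 ± 0.07, adjusted p = 2.27e-07 for E93RNAi against control, and 1.18 ± 0.07, adjusted p = 2.88e-11 between the RNAi genotypes. At 24 h Cda5 was at 42.4, 36.5 and 40.2 CPM in E93RNAi+brRNAi, 42.8, 45.7 and 49.0 CPM in E93RNAi and 45.9, 50.2 and 49.3 CPM in control. The 24 h calls were small: -0.29 for E93RNAi+brRNAi against control, lost without E93RNAi+brRNAi replicate 2 (-0.23), and -0.21 between the RNAi genotypes, lost without E93RNAi replicate 2 (-0.21), without E93RNAi replicate 3 (-0.16), without E93RNAi+brRNAi replicate 2 (-0.15) and without E93RNAi+brRNAi replicate 3 (-0.22), with the replicate block (-0.21) and with only the groups compared (-0.18). Cda4, another predicted deacetylase, stayed within 65.6 to 96.0 CPM in all 18 libraries, and its largest call was a rise of 0.41 on the log2 scale in E93RNAi+brRNAi against control at 24 h. Cda9 had at most 4 counts in any library and was not tested.

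Gasp encodes an obstructor-type chitin-binding protein with known expression in the trachea (FBgn0026077, chromosome 3R, 6088799 to 6100887, minus strand). At 44 h it was at 1162, 1159 and 1463 CPM in E93RNAi+brRNAi, 338, 323 and 324 CPM in E93RNAi and 314, 307 and 299 CPM in control. The E93RNAi+brRNAi libraries were far above the others, with log2 fold changes of 2.04 ± 0.08, adjusted p = 4.71e-14 against control and 1.94 ± 0.08, adjusted p = 2.71e-13 against E93RNAi, and E93RNAi against control was not called (0.10, adjusted p = 0.368, 95% interval -0.07 to 0.27), though limma on log2(cRPKM + 1) called it (0.21). At 24 h Gasp was at 67.3, 59.9 and 51.6 CPM in E93RNAi+brRNAi, 33.4, 33.7 and 36.8 CPM in E93RNAi and 110.3, 121 and 114 CPM in control. Here both RNAi genotypes were below every control library, with log2 fold changes of -0.95 ± 0.09, adjusted p = 4.56e-08 in E93RNAi+brRNAi and -1.73 ± 0.09, adjusted p = 8.07e-12 in E93RNAi, and E93RNAi+brRNAi was above E93RNAi (0.78 ± 0.09, adjusted p = 1.27e-06). Of the genes listed as tracheal markers, btl and dys were not matched, and trh and vvl were used (neither at 0 in any group). The sums of trh and vvl were 424 to 442 CPM in E93RNAi+brRNAi, 540 to 564 CPM in E93RNAi and 425 to 438 CPM in control at 44 h. At 24 h their sums were 835 to 896 CPM in E93RNAi+brRNAi, 815 to 956 CPM in E93RNAi and 882 to 935 CPM in control. Whether trh and vvl are expressed only by tracheal cells in these wings was not tested, so their sums are not a measure of trachea. The part of tracheal cells in the Gasp differences was not tested.

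The obstructor genes obst-A and obst-B were lower in E93RNAi than in control at 44 h. Obst-A organises the chitin matrix of the larval cuticle, and obst-B is a related chitin-binding protein. At 44 h obst-B (FBgn0027600, chromosome 2L, 10032690 to 10038954, plus strand) was at 522, 548 and 676 CPM in E93RNAi+brRNAi, 261, 277 and 281 CPM in E93RNAi and 458, 477 and 492 CPM in control. All 3 genotypes were separate, with log2 fold changes of 0.29 ± 0.07, adjusted p = 0.00137 for E93RNAi+brRNAi against control, -0.80 ± 0.07, adjusted p = 5.49e-09 for E93RNAi against control, and 1.09 ± 0.07, adjusted p = 4.77e-11 between the RNAi genotypes. At 24 h obst-B was at 182, 178 and 185 CPM in E93RNAi+brRNAi, 169, 178 and 168 CPM in E93RNAi and 218, 215 and 217 CPM in control, with log2 fold changes against control of -0.25 in E93RNAi+brRNAi and -0.34 in E93RNAi. For obst-A the 44 h means were 647 ± 38.4 CPM in E93RNAi+brRNAi, 513 ± 23.7 CPM in E93RNAi and 795 ± 35.2 CPM in control (SD, n = 3). That was a fall in both RNAi genotypes, with log2 fold changes of -0.30 ± 0.06, adjusted p = 5.17e-04 in E93RNAi+brRNAi and -0.63 ± 0.06, adjusted p = 4.31e-08 in E93RNAi. At 24 h obst-A was instead higher in E93RNAi, at 261 ± 23.4 CPM against 176 ± 7.77 CPM in control (log2 fold change 0.57 ± 0.06, adjusted p = 4.90e-07), and not called in E93RNAi+brRNAi (-0.03).

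The least abundant tested obstructor gene was obst-E, which shapes the larval cuticle and with it the pupal case (FBgn0031737, chromosome 2L, 5762553 to 5766142, minus strand). It was at 1.17, 0.751 and 1.78 CPM in E93RNAi+brRNAi, 0.664, 0.562 and 0.576 CPM in E93RNAi and 0.275, 0.399 and 0.388 CPM in control at 44 h. At 24 h obst-E was at 0.289, 0.189 and 0.134 CPM in E93RNAi+brRNAi, 0.183, 0.0428 and 0.046 CPM in E93RNAi and 0.155, 0.151 and 0.235 CPM in control. These levels are 1 to 32 counts per library, and the gene passed the filter on low counts only through the RNAi libraries at 44 h, where it was high. Its log2 fold changes at 44 h are therefore given as a description, 1.79 for E93RNAi+brRNAi against control and 1.04 against E93RNAi. The call against E93RNAi was lost without E93RNAi replicate 2 (0.99) and without E93RNAi+brRNAi replicate 3 (0.68).

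Cht5, a chitinase that clears old cuticle at molts in other insects (FBgn0038180, chromosome 3R, 13767549 to 13770732, plus strand), was below control in both RNAi genotypes at both times. At 44 h it was at 372, 419 and 419 CPM in E93RNAi+brRNAi, 241, 219.7 and 226 CPM in E93RNAi and 573, 589 and 658 CPM in control. At 24 h it was at 312, 291 and 308 CPM in E93RNAi+brRNAi, 232, 221 and 218 CPM in E93RNAi and 655, 807 and 641 CPM in control. No library of a genotype overlapped another genotype at either time, and E93RNAi+brRNAi lay between E93RNAi and control. The log2 fold changes against control were -0.59 ± 0.08, adjusted p = 1.86e-06 in E93RNAi+brRNAi and -1.41 ± 0.08, adjusted p = 5.76e-12 in E93RNAi at 44 h. At 24 h they were -1.21 ± 0.08, adjusted p = 1.51e-10 in E93RNAi+brRNAi and -1.65 ± 0.08, adjusted p = 1.43e-12 in E93RNAi. Between the RNAi genotypes Cht5 was higher in E93RNAi+brRNAi by 0.82 at 44 h and 0.44 at 24 h.

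Cht10, a large chitinase with several catalytic domains that is needed for molting in other insects (FBgn0250907, chromosome 2L, 22999574 to 23025915, minus strand), moved the other way. At 44 h it was at 1712 ± 202 CPM in E93RNAi+brRNAi, 3119 ± 44.7 CPM in E93RNAi and 1689 ± 139 CPM in control (SD, n = 3). Only the E93RNAi libraries stood apart there, with log2 fold changes of 0.89 ± 0.08, adjusted p = 5.35e-09 for E93RNAi against control and -0.87 ± 0.08, adjusted p = 7.61e-09 for E93RNAi+brRNAi against E93RNAi. The difference between E93RNAi+brRNAi and control was 0.02, adjusted p = 0.855, with a 95% interval of -0.14 to 0.18. At 24 h Cht10 was at 1837 ± 75.8 CPM in E93RNAi+brRNAi, 2464 ± 177 CPM in E93RNAi and 1442 ± 61.4 CPM in control, with log2 fold changes against control of 0.35 in E93RNAi+brRNAi and 0.77 in E93RNAi.

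Cht7, a membrane-anchored chitinase that in Tribolium is needed for wing expansion (FBgn0035398, chromosome 3L, 3090985 to 3106958, minus strand), had the largest genotype difference of the 26 genes. At 44 h it was at 1033, 1095 and 1231 CPM in E93RNAi+brRNAi, 387, 341 and 453 CPM in E93RNAi and 76.8, 97.6 and 73.5 CPM in control. No genotypes overlapped. Log2 fold changes of Cht7 were 3.76 ± 0.11, adjusted p = 1.04e-16 for E93RNAi+brRNAi against control, 2.25 ± 0.10, adjusted p = 2.27e-13 for E93RNAi against control, and 1.51 ± 0.09, adjusted p = 4.77e-11 between the RNAi genotypes. At 24 h Cht7 was at 97.5, 91.6 and 86.4 CPM in E93RNAi+brRNAi, 132, 136 and 138 CPM in E93RNAi and 96.4, 97.5 and 97.5 CPM in control. The E93RNAi libraries were then the highest (0.48 ± 0.10, adjusted p = 5.46e-04 against control), and E93RNAi+brRNAi was not called against control (-0.08, adjusted p = 0.593, 95% interval -0.29 to 0.12).

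Cht6, a further chitinase of the family (FBgn0263132, chromosome X, 10016845 to 10050803, plus strand), rose at 44 h in E93RNAi+brRNAi and was not called in E93RNAi. It was at 1123, 1165 and 973 CPM in E93RNAi+brRNAi, 334, 315 and 384 CPM in E93RNAi and 327, 326 and 269.9 CPM in control. Its log2 fold changes were 1.82 ± 0.10, adjusted p = 3.88e-12 for E93RNAi+brRNAi against control and 1.66 ± 0.10, adjusted p = 2.34e-11 between the RNAi genotypes, while E93RNAi against control gave 0.16, adjusted p = 0.2 (95% interval -0.04 to 0.37, and 0.27 with a call by limma on log2(cRPKM + 1)). At 24 h, with 93.7, 90.6 and 78.5 CPM in E93RNAi+brRNAi, 99.0, 90.9 and 113 CPM in E93RNAi and 94.8, 116 and 103 CPM in control, no comparison was called, though upper-quartile scaling and a fit of only the groups compared called E93RNAi+brRNAi against control (-0.25 in both). Exons of Cht6 share 521 bases with an antisense transcript (asRNA:CR45185).

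Of the other chitinases, Cht8 was low and Cht2 and Cht11 moved little. Cht8 (FBgn0034580, chromosome 2R, 21061646 to 21063212, plus strand) was at 1.79, 3.12 and 2.12 CPM in E93RNAi+brRNAi, 2.05, 0.936 and 1.04 CPM in E93RNAi and 3.24, 2.54 and 4.88 CPM in control at 44 h. All 3 E93RNAi libraries were below the control libraries (log2 fold change -1.41 ± 0.29, adjusted p = 4.23e-04 against control). The Cht8 rise in E93RNAi+brRNAi against E93RNAi (0.82) was lost without E93RNAi replicate 2 (0.60), without E93RNAi replicate 3 (0.70) and without E93RNAi+brRNAi replicate 2 (0.58), with limma on log2(cRPKM + 1) (0.34) and with only the groups compared (0.82). At 24 h Cht8 was at 0.824 to 1.16 CPM in E93RNAi+brRNAi, 0.551 to 0.640 CPM in E93RNAi and 0.958 to 1.14 CPM in control, with no call except E93RNAi against control in a fit of only the groups compared (-0.78). Cht2 lay within 211 to 304 CPM in all 18 libraries and its called genotype differences lay between -0.32 and 0.40 on the log2 scale. Its call in E93RNAi against control at 24 h (-0.16) was lost without control replicate 3 (-0.15) and with no filter on low counts (-0.13). On the other strand CG13921, at 913 to 3055 counts per library, shares 63 exon bases with Cht2 (3878 to 5768 counts). Cht11, at 7.25 to 10.9 CPM, passed in none of the 6 genotype comparisons.

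The 4 untested genes had few counts. Cht4, which lies 904 bases from Cht9 and 2166 bases from Cht8 on chromosome 2R, had 9, 13 and 7 counts in the E93RNAi+brRNAi libraries at 44 h and none in the E93RNAi and control libraries of that time. With 3 counts summed over a group put in place of none, its observed level in E93RNAi+brRNAi at 44 h was 9.36-fold that in E93RNAi and 10.0-fold that in control. These folds leave out the counting error of the E93RNAi+brRNAi counts, so they are not lower limits. Cht9 had 6, 7 and 7 counts in the same E93RNAi+brRNAi libraries and at most 1 count in any other library. Exons of Cht9 share 893 bases with an antisense transcript (asRNA:CR44703), and it is not given whether reads of both strands were kept apart, so these counts may belong to either. Idgf5 had 7, 4 and 7 counts in the E93RNAi libraries at 24 h against none in the control libraries of that time, and at most 5 counts in any other library. These genes are described only, and counting error alone is wide at such depths.

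**Figure D3:**
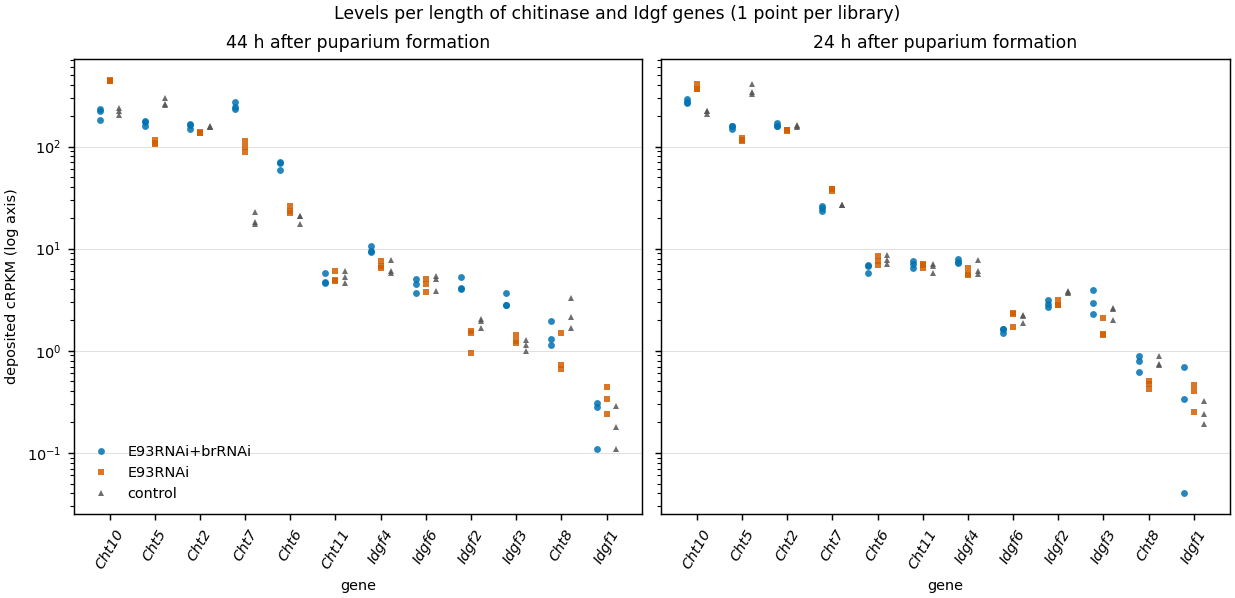
Deposited cRPKM (counts per kilobase and per 1000000 counts, log axis) of 12 chitinase and Idgf genes at 44 h (left panel) and 24 h (right panel), with 1 point per library and E93RNAi+brRNAi, E93RNAi and control from left to right at each gene. Cht10, Cht5 and Cht2 are high in all groups, and at 44 h Cht7 lies at 252 ± 19.8 cRPKM in E93RNAi+brRNAi against 19.5 ± 2.95 cRPKM in control.

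Among the imaginal disc growth factors, chitinase-like proteins without the catalytic residue that were first found as growth factors for disc cells in culture, Idgf2, Idgf3 and Idgf4 rose at 44 h in E93RNAi+brRNAi. Idgf2 (FBgn0020415, chromosome 2L, 16447330 to 16450508, plus strand) was at 6.47, 6.41 and 8.35 CPM in E93RNAi+brRNAi, 2.16, 2.06 and 1.33 CPM in E93RNAi and 2.53, 2.99 and 3.05 CPM in control. The E93RNAi+brRNAi libraries were above all others and the E93RNAi libraries below all control libraries, with log2 fold changes of 1.31 ± 0.15, adjusted p = 4.86e-07 for E93RNAi+brRNAi against control and 1.93 ± 0.16, adjusted p = 5.27e-09 between the RNAi genotypes. The fall in E93RNAi against control (-0.62) was lost without E93RNAi replicate 3 (-0.44). At 24 h Idgf2 was at 3.79, 3.55 and 4.15 CPM in E93RNAi+brRNAi, 3.61, 4.02 and 3.63 CPM in E93RNAi and 5.01, 4.94 and 4.83 CPM in control. The Idgf2 call in E93RNAi (-0.39) was lost without control replicate 1 (-0.38), without control replicate 2 (-0.39), without control replicate 3 (-0.40), without E93RNAi replicate 1 (-0.36) and without E93RNAi replicate 3 (-0.37), with no filter on low counts (-0.36) and with DESeq2 (-0.38).

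Idgf3, which lies 398 bases from Idgf2 (FBgn0020414, chromosome 2L, 16450907 to 16455194, plus strand), was at 5.06, 6.7 and 5.18 CPM in E93RNAi+brRNAi, 1.88, 2.29 and 2.02 CPM in E93RNAi and 2.2, 1.74 and 1.94 CPM in control at 44 h. Its log2 fold changes were 1.53 ± 0.22, adjusted p = 6.86e-06 for E93RNAi+brRNAi against control and 1.44 ± 0.21, adjusted p = 1.21e-05 between the RNAi genotypes, and E93RNAi was not called against control (0.08). At 24 h Idgf3 was at 6.02, 4.41 and 3.48 CPM in E93RNAi+brRNAi, 3.06, 2.14 and 2.11 CPM in E93RNAi and 2.94, 3.98 and 3.85 CPM in control. E93RNAi+brRNAi was above E93RNAi there (0.93 ± 0.20, adjusted p = 0.00102). The call in E93RNAi against control (-0.56) was lost without control replicate 2 (-0.48), without control replicate 3 (-0.51), without E93RNAi replicate 2 (-0.47) and without E93RNAi replicate 3 (-0.47). Idgf4 rose by 0.67 ± 0.12, adjusted p = 6.68e-05 in E93RNAi+brRNAi against control at 44 h, where it was at 16.5 ± 1.38 CPM in E93RNAi+brRNAi against 10.3 ± 1.52 CPM in control (SD, n = 3). Idgf1, at 0.0474 to 0.907 CPM, and Idgf6, at 2.10 to 8.69 CPM, passed in no genotype comparison. Hemocytes and fat body are known to make Idgf proteins. Hemocyte markers (Hml, Pxn, NimC1, He, eater and srp, none at 0 in any group) summed to 66.7 to 70.9 CPM in E93RNAi+brRNAi, 58.3 to 60.1 CPM in E93RNAi and 83.3 to 92.5 CPM in control at 44 h. Fat body markers (6 genes, none at 0 in any group) summed to 399 to 443 CPM in E93RNAi+brRNAi, 296 to 337 CPM in E93RNAi and 312 to 416 CPM in control at 44 h. In E93RNAi+brRNAi against control at that time 4 of 6 fat body markers were called higher and 1 lower (median log2 fold change 0.77), and in E93RNAi+brRNAi against E93RNAi 2 were higher and none lower (0.12). The part of these cells in the Idgf differences was not tested.

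Between the times, the chitin gene calls were most one-sided in E93RNAi+brRNAi wings. There 20 genes rose and 1 fell (reb) at 44 h against 24 h, beside 75.8% of all genes called, with 37.8% higher and 38% lower (20 and 2 without E93RNAi+brRNAi 44 h replicate 3, and 16 and 4 with limma on log2(cRPKM + 1)). In E93RNAi wings 14 rose and 5 fell (74.5% of all genes called, 38.1% higher and 36.4% lower, or 14 and 4 chitin genes without E93RNAi 24 h replicate 3), and in control wings 11 rose and 8 fell (75.3% of all genes called, 37.1% higher and 38.1% lower, or 8 chitin genes higher and 11 lower with limma on log2(cRPKM + 1)). The shares of chitin genes called in either direction were near these backgrounds, 80.8% in E93RNAi+brRNAi, 73.1% in E93RNAi and 73.1% in control. The medians of the 26 genes were 0.95 in E93RNAi+brRNAi, 0.35 in E93RNAi and 0.17 in control, beside 0.003 in E93RNAi+brRNAi, 0.015 in E93RNAi and -0.014 in control over all genes. Rises of at least 1 on the log2 scale were called for 13 genes in E93RNAi+brRNAi, 6 in E93RNAi and 6 in control. The 20 and 13 rises in E93RNAi+brRNAi and the 14 and 6 in E93RNAi include obst-E, which passed the filter on low counts only through its RNAi libraries at 44 h. Of all genes, 30.5% in E93RNAi+brRNAi, 27.6% in E93RNAi and 31% in control passed that size in either direction.

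In control wings the largest changes with time were rises of obst-A (2.18 ± 0.06, adjusted p = 1.79e-17), Cht8 (1.78 ± 0.29, adjusted p = 1.48e-05), Cht6 (1.56 ± 0.10, adjusted p = 1.24e-11) and Gasp (1.41 ± 0.09, adjusted p = 3.29e-12), and falls of knk (-1.88 ± 0.06, adjusted p = 9.42e-17), serp (-1.21 ± 0.14, adjusted p = 1.10e-07) and kkv (-1.02 ± 0.06, adjusted p = 3.53e-12). Transcripts of the synthase kkv and of its assembly factor knk were thus lower at 44 h than at 24 h in control, at 469 ± 29.1 CPM at 44 h against 953 ± 20.6 CPM at 24 h for kkv and 44.7 ± 2.49 CPM at 44 h against 164 ± 3.57 CPM at 24 h for knk. In E93RNAi the changes were -0.33 ± 0.06, adjusted p = 7.55e-05 for kkv and -1.0 ± 0.06, adjusted p = 3.34e-12 for knk, smaller falls than in control by the interaction test given below. In E93RNAi+brRNAi both were called higher at 44 h, knk by 0.34 and kkv by 0.18. The knk call was lost with limma on log2(cRPKM + 1), at 0.064 (adjusted p = 0.287). The kkv rise was lost with upper-quartile scaling (0.092), without E93RNAi+brRNAi 24 h replicate 3 (0.16) and without E93RNAi+brRNAi 44 h replicate 2 (0.15) and became -0.10, with no call, with limma on log2(cRPKM + 1).

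Gasp had the largest change with time of the 26 genes, at 1261 ± 175 CPM at 44 h against 59.6 ± 7.82 CPM at 24 h in E93RNAi+brRNAi (log2 fold change 4.40 ± 0.10, adjusted p = 1.55e-19). The Gasp changes were 3.25 ± 0.09, adjusted p = 1.67e-17 in E93RNAi and 1.41 ± 0.09, adjusted p = 3.29e-12 in control. Cht6, Cht7 and exp also rose by more than 3 on the log2 scale in E93RNAi+brRNAi, by 3.63 ± 0.11, adjusted p = 2.19e-17 for Cht6, 3.61 ± 0.10, adjusted p = 1.21e-17 for Cht7 and 3.12 ± 0.09, adjusted p = 2.48e-17 for exp. Cht6 rose in the other genotypes as well (1.77 in E93RNAi and 1.56 in control), and Cht7 rose in E93RNAi (1.54). In control Cht7 was slightly lower at 44 h (-0.23), a call lost with RLE scaling (-0.20), DESeq2 (-0.20) and the replicate block (-0.23), and also without control 24 h replicate 1 (-0.24), without control 24 h replicate 2 (-0.23), without control 24 h replicate 3 (-0.23), without control 44 h replicate 1 (-0.18) and without control 44 h replicate 3 (-0.15). For exp the values were -0.23 in E93RNAi and -0.56 in control, and the E93RNAi call was lost with DESeq2 (-0.22) and without E93RNAi 24 h replicate 3 (-0.13) and without E93RNAi 44 h replicate 2 (-0.15). The log2 fold change of obst-E in E93RNAi, at few counts, was 2.66, and 3.58 without E93RNAi 24 h replicate 1. Idgf6 rose in all 3 genotypes, by 1.74 in E93RNAi+brRNAi, 1.20 in E93RNAi and 1.40 in control, and mmy rose by 1.09 in E93RNAi+brRNAi, 0.86 in E93RNAi and 0.99 in control.

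**Figure D4:**
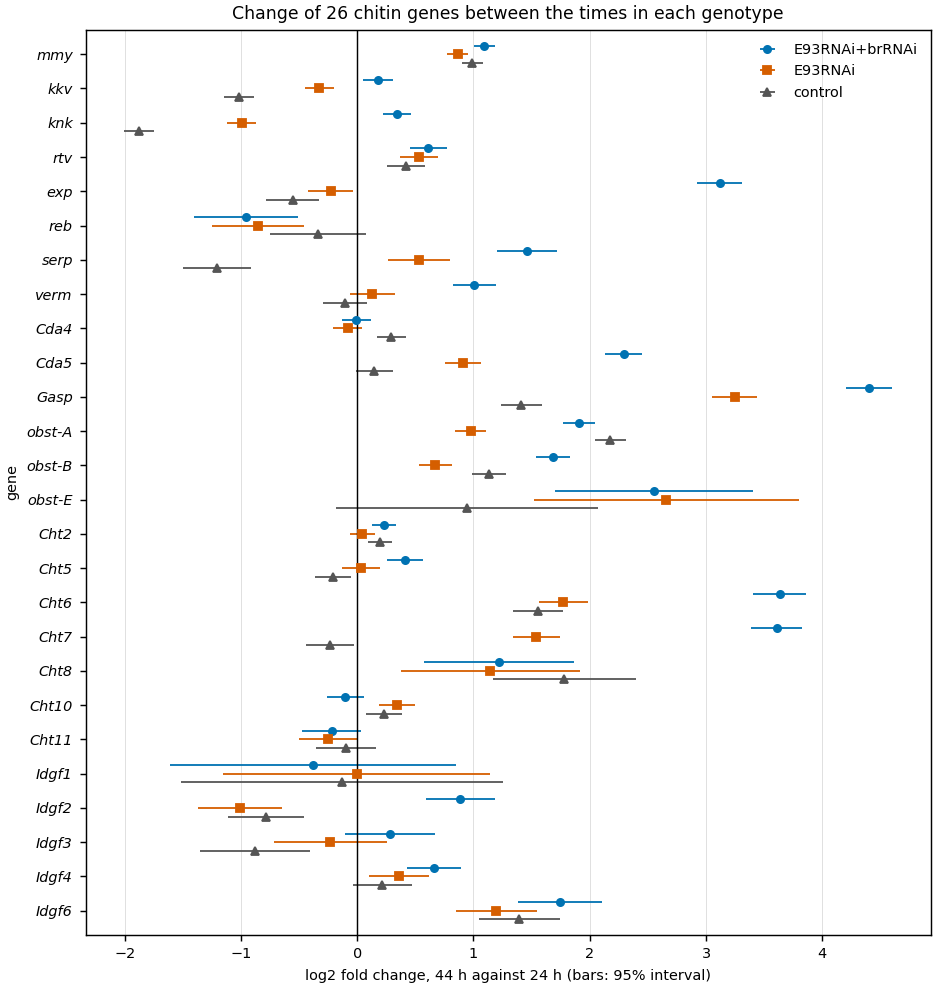
Log2 fold change of 44 h against 24 h (horizontal axis, bars are 95% intervals of the edgeR fit) for the 26 tested chitin genes in E93RNAi+brRNAi, E93RNAi and control wings. For knk the changes are 0.34 in E93RNAi+brRNAi, -1.0 in E93RNAi and -1.88 in control, and for Gasp 4.40 in E93RNAi+brRNAi, 3.25 in E93RNAi and 1.41 in control.

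Whether the genotype differences themselves differed between the times was tested through interaction contrasts. The difference between E93RNAi and control was higher at 44 h than at 24 h for 6 chitin genes (kkv, knk, serp, Cda5, Gasp and Cht7) and lower for 3 (Cda4, obst-A and obst-B), beside 37.9% of all genes called (19.9% higher and 18% lower). Without E93RNAi 24 h replicate 3 the counts were 7 and 3. Of the 8 muscle markers 1 was higher and 7 were lower in this interaction (median -3.135). Also lower, with none higher, were 4 of 5 tested hemocyte markers (median -0.95) and 4 of 6 fat body markers (median -0.53). Both trh and vvl were higher (median 0.35), as were 3 of 6 neuron and sensory organ markers (median 0.58), with none lower. Of 5 wing epithelium markers 2 were higher and 2 lower. The part of these markers' cells in the chitin gene values was not tested. Changes of at least 1 either way were called for 4 of these chitin genes (serp, Gasp, Cht7 and obst-A) and for 10.5% of all genes. The medians were 0.13 for the chitin genes and 0.02 for all genes. The changes of the difference were 1.83 ± 0.12, adjusted p = 4.17e-10 for Gasp, 1.77 ± 0.14, adjusted p = 3.43e-09 for Cht7, 1.74 ± 0.19, adjusted p = 4.15e-07 for serp, 0.88 ± 0.08, adjusted p = 7.32e-08 for knk, 0.70 ± 0.09, adjusted p = 2.59e-06 for kkv and -1.20 ± 0.09, adjusted p = 1.57e-09 for obst-A. For Gasp this went with a fall at 24 h and no call at 44 h, and for serp with a fall at 24 h and a rise at 44 h. Cht5, which fell at both times, gave 0.24, adjusted p = 0.084 with a 95% interval of 0.02 to 0.46, and was called with limma on log2(cRPKM + 1) (0.32).

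The difference between E93RNAi+brRNAi and E93RNAi was higher at 44 h than at 24 h for 15 chitin genes and lower for 1 (Cht10), beside 33.5% of all genes called, with 17.5% higher and 16% lower. The counts were 14 and 1 without E93RNAi+brRNAi 44 h replicate 3, and 15 and 1 without E93RNAi 24 h replicate 3. In the same interaction all 8 muscle markers were called higher (median 3.51) and 5 of 6 fat body markers were higher (median 0.69). Both trh and vvl were lower (median -0.33), as was 1 of 5 wing epithelium markers. Of 6 neuron and sensory organ markers 1 was higher, and no hemocyte marker was called. The part of these markers' cells in the chitin gene values was not tested. Changes of at least 1 either way were called for 8 of these chitin genes and for 8.18% of all genes. The medians were 0.50 for the chitin genes and -0.03 for all genes. The changes were 3.35 ± 0.13, adjusted p = 4.23e-13 for exp, 2.07 ± 0.14, adjusted p = 4.38e-10 for Cht7, 1.90 ± 0.22, adjusted p = 1.42e-06 for Idgf2, 1.86 ± 0.14, adjusted p = 3.17e-09 for Cht6 and 1.38 ± 0.11, adjusted p = 3.11e-09 for Cda5. For exp and Cht7 the RNAi genotypes differed in opposite directions at the 2 times, lower in E93RNAi+brRNAi at 24 h and higher at 44 h. The call for Cht2 (0.19) was lost with limma on log2(cRPKM + 1) (0.035), upper-quartile scaling (0.13) and a fit of only the groups compared (0.21). It was also lost, at 0.16 to 0.20, on leaving out any of 9 of the 12 libraries in the contrast, all but E93RNAi+brRNAi 44 h replicate 1, E93RNAi+brRNAi 24 h replicate 3 and E93RNAi 44 h replicate 3.

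On a per-length scale (cRPKM, the deposited count per kilobase and per 1000000 counts) the order of the chitin genes differed between groups. Gasp was first in E93RNAi+brRNAi at 44 h, at 784 ± 101 cRPKM, against 233 ± 8.02 cRPKM in E93RNAi and 201 ± 4.1 cRPKM in control (SD, n = 3). It was the fourth in E93RNAi and the fifth in control at that time. Cht10 was first in E93RNAi at both times, at 442 ± 7.67 cRPKM at 44 h and 379.9 ± 23.1 cRPKM at 24 h. In control at 24 h the first was Cht5, at 361 ± 46.0 cRPKM, above Cht10 at 219 ± 7.61 cRPKM and obst-B at 210.5 ± 2.95 cRPKM, which lie within their spread of each other. At 44 h Cht7 was at 252 ± 19.8 cRPKM in E93RNAi+brRNAi, 101 ± 13.3 cRPKM in E93RNAi and 19.5 ± 2.95 cRPKM in control, and in E93RNAi+brRNAi it lay next to Cht10 at 214 ± 26.4 cRPKM. The lowest tested gene was obst-E or Idgf1 in every group.

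Genes of the same pathway outside the list of 30 were read from a second list of 36 symbols, of which 28 were matched and 17 tested. This list too was chosen with earlier results of these data known. In E93RNAi+brRNAi against control at 44 h, 12 of the 17 rose and 2 fell, beside 45.6% of all genes called (23% higher and 22.6% lower). Against E93RNAi 10 rose and none fell, beside 48.8% of all genes called (24.9% higher and 23.9% lower). The medians were 0.37 against control and 0.58 against E93RNAi on the log2 scale. Gnpnat, which acetylates glucosamine phosphate, was at 89.4 ± 7.48 CPM in E93RNAi+brRNAi, 37.2 ± 1.6 CPM in E93RNAi and 31.3 ± 1.37 CPM in control at 44 h (SD, n = 3). E93RNAi+brRNAi against control gave 1.51 ± 0.06, adjusted p = 3.33e-14. Pgi, which supplies fructose phosphate, was at 168 ± 24.5 CPM in E93RNAi+brRNAi, 72.7 ± 1.14 CPM in E93RNAi and 67.6 ± 2.23 CPM in control, and E93RNAi+brRNAi against E93RNAi gave 1.21 ± 0.08, adjusted p = 4.86e-11. The deacetylase-like gene ChLD3 rose in both RNAi genotypes at 44 h (2.99 ± 0.11, adjusted p = 9.61e-15 in E93RNAi+brRNAi and 2.41 ± 0.11, adjusted p = 5.07e-13 in E93RNAi against control). So did dyl, a zona pellucida protein of wing hairs and bristles, by 2.30 ± 0.11, adjusted p = 4.62e-13 in E93RNAi+brRNAi and 0.52 ± 0.11, adjusted p = 4.56e-04 in E93RNAi. The 2 falls in E93RNAi+brRNAi were small, -0.19 for fdl and -0.17 for Gfat2, which like Gnpnat acts upstream of mmy.

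In E93RNAi against control at 44 h, 7 of the 17 rose and 2 fell, beside 39.6% of all genes called (log2 fold changes of -1.10 ± 0.06, adjusted p = 1.39e-11 for mtg and -0.10 for Gfat2), and Mur89F, a mucin-related chitin-binding protein, rose by 1.04 ± 0.15, adjusted p = 1.01e-05. At 24 h the counts against control were 2 higher and 3 lower in E93RNAi+brRNAi, beside 30.5% of all genes called, and 5 higher and 4 lower in E93RNAi, beside 43.9%. The share of the 17 called was thus 29.4% in E93RNAi+brRNAi, near its background, and 52.9% in E93RNAi. Mur89F was lower in both RNAi genotypes at that time, at 2050.5 ± 149 CPM in E93RNAi+brRNAi and 2070.4 ± 245 CPM in E93RNAi against 3765 ± 262 CPM in control. Gnpnat fell in E93RNAi at 24 h (-0.89 ± 0.06, adjusted p = 6.95e-10) and was 0.91 ± 0.06, adjusted p = 5.41e-10 higher in E93RNAi+brRNAi than in E93RNAi.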

How the data were processed

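Poly(A) RNA-seq libraries of pupal wings (18, in 6 groups of 3, grouped by genotype and time in the labels) were used. For each library the authors deposited whole-number read counts per gene, without normalization, and cRPKM, an RPKM value, the count per 1000000 counts and per kilobase of a fixed gene length, as a check of the values showed. The build is dm6, per the submitters' processing notes, and for the aligner, the counting tool and strand use, nothing is given in the sources used here. Of 14489 genes listed, 13731 had values, and 13511 identifiers were matched to symbols; coordinates are those of the BDGP6 annotation. The row FBgn0000210, absent from that annotation, was taken as br, from background knowledge that it is a former identifier, and its implied length of 8173 bases lies near a br transcript of 8223 bases.

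The counts were scaled by TMM and filtered with filterByExpr over the 6 groups in edgeR 4.0.16 (R 4.3.3), and all 18 libraries were fitted with 1 mean per group, the quasi-likelihood F test and Benjamini-Hochberg adjustment over 9672 genes with a threshold of 0.05. The common biological coefficient of variation was 5.99%. CPM values are TMM-scaled, SDs are over n = 3 libraries, and all adjusted p-values are from this fit. The folds of Cht4 put 3 counts summed over a group in place of none and leave out the counting error of the higher group. Floors and intervals of single counts cover counting error only. The fit was tested on simulated counts.

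Alternatives were RLE (as in DESeq2) and upper-quartile scaling, no filter on low counts, DESeq2 1.42.0, limma 3.58.1 on log2(cRPKM + 1), fits of only the groups compared, the replicate number as a block, and leaving out each library. Same-numbered libraries of different groups did not deviate together (correlations of -0.18 to 0.09, beside -0.10 to 0.13 for other pairs). The 30 genes, the second list and the markers were chosen with earlier results of these data known. Library values are printed for genes with a called change of at least 1 (log2) between genotypes or at least 3 between times and, outside that rule and chosen after its values were seen, for kkv, and the second list's genes are named by size of change at 5 CPM or more, up to 3 per direction and genotype comparison. Unmatched symbols of that list were not used here.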

Additional observations from a re-analysis of the deposited data

Results flagged for a closer look

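The genotype differences of 25 gene and contrast pairs changed between the times by the interaction test of the edgeR fit (adjusted p under 0.05 over all genes), and each value below is the log2 fold change between genotypes at 44 h minus that at 24 h. For E93RNAi against control the 6 positive values were 1.83 for Gasp, 1.77 for Cht7, 1.74 for serp, 0.88 for knk, 0.76 for Cda5 and 0.70 for kkv. The 3 negative values were -1.20 for obst-A, -0.46 for obst-B and -0.38 for Cda4. All 9 calls held when any library of the contrast was left out.

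For E93RNAi+brRNAi against E93RNAi the assembly genes gave 3.35 for exp and 1.33 for knk, and the synthesis genes gave 0.50 for kkv and 0.23 for mmy. Among the deacetylases the values were 1.38 for Cda5, 0.93 for serp and 0.88 for verm. The chitin-binding genes gave 1.16 for Gasp, 1.01 for obst-B and 0.93 for obst-A. The chitinases gave 2.07 for Cht7, 1.86 for Cht6, 0.38 for Cht5, 0.19 for Cht2 and -0.44 for Cht10, and Idgf2 gave 1.90. Of these 16 calls, 15 held when any library of the contrast was left out, the exception being Cht2. With limma on log2(cRPKM + 1) the calls of Cht2 (0.035), Cht5 (0.225) and mmy (0.079) were lost. No cause of these differences was tested.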

How the results depend on the processing

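No count of called chitin genes moved by 1.5 times under any alternative. Leaving out each library gave 21 to 23 calls for E93RNAi+brRNAi against E93RNAi, 17 to 19 for E93RNAi+brRNAi against control and 14 to 15 for E93RNAi against control at 44 h. At 24 h the ranges were 11 to 16 for E93RNAi+brRNAi against E93RNAi, 8 to 11 for E93RNAi+brRNAi against control and 11 to 15 for E93RNAi against control, and the times gave 20 to 22 in E93RNAi+brRNAi, 17 to 20 in E93RNAi and 17 to 19 in control. Interactions gave 15 to 17 calls for E93RNAi+brRNAi against E93RNAi (the br interaction) and 9 to 10 for E93RNAi against control (the E93RNAi interaction). Over 286 gene and contrast pairs, DESeq2 lost 3 calls and gained 1, RLE lost 1 and gained 2, upper-quartile scaling lost 4 and gained 4, omission of the filter lost 4 and gained 2, and fits of only the groups compared lost 5 and gained 9. With the replicate block, 3 calls were lost and none gained: mmy at 24 h in E93RNAi+brRNAi against control (-0.12), Cda5 at 24 h between the RNAi genotypes (-0.21) and Cht7 between the times in control (-0.23), and every other call was the same. Limma on log2(cRPKM + 1), which has no composition scaling, lost 12 and gained 13, and turned 3 small changes with time round: Cht2 in control (-0.014 against 0.20), and in E93RNAi+brRNAi kkv (-0.10 against 0.18) and Cht2 (-0.042 against 0.23). Under it the median of all genes was -0.21 between the times in E93RNAi+brRNAi, -0.17 between the times in control, -0.16 for E93RNAi+brRNAi against E93RNAi at 44 h and -0.13 for the br interaction. The share of higher calls among all calls was then 35.3% between the times in E93RNAi+brRNAi (49.9% in the edgeR fit with TMM), 37.3% between the times in control (49.3%), 25.8% for E93RNAi+brRNAi against E93RNAi at 44 h (51.0%) and 29.9% for the br interaction (52.2%). Against control at 44 h it was 39.0% for E93RNAi+brRNAi (50.5%) and 72.4% for E93RNAi (52.2%), and it was 67.0% for the E93RNAi interaction (52.4%). Upper-quartile scaling gave 41.5% for the br interaction. The cause was not tested. Depth limits obst-E, Idgf1, Cht8 and the 4 untested genes, all at low counts, and small calls at 24 h were the least stable, with 10 of 15 in E93RNAi, 7 of 10 in E93RNAi+brRNAi and 11 of 15 between the RNAi genotypes kept in every fit that left out a library.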
